A study of Mus musculus with 57 samples.

Results

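The mitochondrial chaperones and proteases described here are 10 nuclear genes of protein quality control inside mitochondria. The rule that names them uses gene symbols and no measured value, but it was set with earlier results of these data known. They are Hspd1, Hspe1, Hspa9, Dnaja3, Trap1, Lonp1, Clpp, Clpx, Afg3l2 and Spg7, and they make up 10 of the 52853 genes counted. Proteins made in the cytosol enter the mitochondrial matrix unfolded. The matrix Hsp70 (Hspa9) pulls them in, and inside the matrix it holds them together with the J-protein Dnaja3. The chaperonin formed by Hsp60 (Hspd1) and its lid Hsp10 (Hspe1) folds them. ATP-driven proteases (Lonp1, the ClpXP pair, and the m-AAA protease of Afg3l2 and Spg7) remove those that fail. Genes of these machines are the classical readout of the mitochondrial unfolded protein response, and brown adipose tissue (BAT), which is rich in mitochondria, contains more of them than white adipose tissue (WAT).

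RNA was sequenced from adipose tissue of male C57BL/6J mice that were either wild type (WT) or homozygous knock-in (KI) for the R707W change in Mfn2, the mitofusin of the outer mitochondrial membrane. The KI line was expanded from 1 founder made by CRISPR-Cas9, the change is carried in all tissues, and a silent change that makes a restriction site travels with it. From 5 weeks of age the mice received chow or a high-fat diet (HFD, 45% of energy as fat) for 6 months. That age is from the methods of the study, whose figure legends give 7 weeks. The 6 groups were inguinal WAT on HFD (8 KI, 8 WT), inguinal WAT on chow (6 KI, 7 WT) and BAT on HFD (6 KI, 6 WT), each mouse being 1 column of counts.

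Counts per mouse summed to 17572752 to 25680411 for inguinal WAT on HFD, where each column stands for a mouse listed with 2 technical replicates, and to 8042591 to 11720458 in the other groups. Mfn2 itself was at 115.8 CPM (counts as parts of the library total after TMM scaling over all mice) or more in every mouse. Its log2 fold changes in KI mice were 0.34, 0.36 and 0.29 and did not pass, and its level does not check the genotype, since the KI changes a codon. The adipocyte markers summed to 20427 to 36288 CPM over all mice. Ucp1, the uncoupling protein of brown adipocytes, was at 4164 to 8515 CPM in BAT and at no more than 1.77 CPM in inguinal WAT. Several libraries stood apart by RNA of other cell types. Skeletal muscle markers summed to 56906 CPM in chow KI mouse 4, to 3503 CPM at most in inguinal WAT on HFD and to 2772 CPM at most in BAT, and lymphocyte markers reached 529 CPM in inguinal WAT on HFD and 345 CPM on chow. Epithelial markers summed to 127 CPM in chow WT mouse 4, which had the highest macrophage (1871 CPM) and lowest adipocyte sum (20805 CPM) on chow. It was the lowest chow WT mouse for Hspd1, Dnaja3, Trap1, Lonp1, Clpp, Clpx and Afg3l2, and its lymphocyte markers summed to 91.6 CPM. The counts of members called between KI and WT mice are therefore also given without the 13 mice above 1000 CPM for muscle or 50 CPM for lymphocyte markers, limits chosen after these values had been seen. Their part in the other comparisons was not tested. In bulk tissue, fewer cells of a type and less RNA per cell cannot be told apart.

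The start regions of the genes are shown first, because 2 of the members that rose share one. Hspd1 and Hspe1 lie head to head on chromosome 1 (55077835 to 55088243, minus strand, and 55088132 to 55091307, plus strand, GRCm38), and their models overlap by 112 bases. A stretch of 30 bases between the transcription starts of the shorter Hspd1 transcript and of Hspe1 holds 4 inverted units of the heat shock element, the site at which heat shock factors bind. It is given from RefSeq's table for GRCm38.p6 at chr1:55088053-55088082, plus strand, 5′ to 3′, with the units in capitals. It lies within the first exon of a longer Hspd1 transcript in GENCODE, and the units end 72 bases before the RefSeq start of Hspe1.

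Hspd1 and Hspe1 shared site: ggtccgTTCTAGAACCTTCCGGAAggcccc

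Promoter windows (250 bases before to 50 after the start) were used for 8 of the 10 genes, all but Hspa9 and Afg3l2. A run of 4 units (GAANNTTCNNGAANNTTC or TTCNNGAANNTTCNNGAA, both strands) occurred in 0.0244% of the 32851 promoters, a search added after this site had been seen, and the shorter runs of 3 and 2 units that lie within it occurred in 0.603% and 15.1%. Of the members, Hspd1 and Hspe1 held 3 or 4 units, in the same bases, and Clpp alone of the others held 2. The core TGATGNAA, part of the C/EBP-ATF response element bound by Atf4 and its partners, was in 0 of the 8 members with a window and in 3.97% of all promoters. A site for NRF1, a transcription factor of nuclear genes for mitochondria (GCGCANGCGC), was in the windows of Hspd1, Dnaja3 and Spg7 and in 4.60% of all promoters. These are matches of letters and say nothing about binding.

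The 250 bases before the RefSeq starts of Lonp1 and Dnaja3 are printed because both genes rose in KI inguinal WAT on either diet. That of Lonp1 is chr17:56626904-56627153, minus strand, and holds none of the motifs, so it has no capitals. That of Dnaja3 is chr16:4683820-4684069, plus strand, with the NRF1 letters in capitals. Neither stretch overlaps an annotated exon, although the deposited Dnaja3 model starts further upstream.

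Lonp1 upstream: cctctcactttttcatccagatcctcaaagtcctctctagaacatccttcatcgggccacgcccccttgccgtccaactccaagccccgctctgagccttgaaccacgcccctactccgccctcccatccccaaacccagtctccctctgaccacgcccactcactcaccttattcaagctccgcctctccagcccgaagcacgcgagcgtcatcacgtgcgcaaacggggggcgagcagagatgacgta

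Dnaja3 upstream: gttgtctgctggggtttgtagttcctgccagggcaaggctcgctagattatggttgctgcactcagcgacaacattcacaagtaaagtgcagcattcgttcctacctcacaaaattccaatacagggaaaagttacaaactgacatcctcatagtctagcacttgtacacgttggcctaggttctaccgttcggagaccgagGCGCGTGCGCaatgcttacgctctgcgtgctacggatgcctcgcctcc

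The first question was which of these genes differed between KI and WT mice within a tissue and diet. In inguinal WAT on HFD, Hspa9, Dnaja3, Lonp1 and Hspd1 rose in KI mice, by 1.47-fold for Hspd1 to 2.07-fold for Hspa9. On chow the same 4 genes rose, by 1.56-fold for Hspd1 to 2.58-fold for Hspa9, and Hspe1 rose 1.61-fold. In BAT, Hspa9 rose 1.90-fold and Lonp1 1.92-fold. All 10 genes passed the filter on low counts in each comparison, and calls were made at an adjusted p below 0.01 (edgeR's quasi-likelihood test, Benjamini-Hochberg over all genes tested). Of the 10, 4 were called higher on HFD, 5 on chow and 2 in BAT, where 6.21%, 1.96% and 1.36% of all genes tested were called higher. No member was called lower in any of the 3 comparisons, at an unadjusted p below 0.05 or by DESeq2 either. Without the mice high in muscle or lymphocyte markers, 3 members were called on HFD, 4 on chow and 1 in BAT. Those lost were Hspd1 on HFD (log2 fold change 0.52 against 0.55 with all mice, adjusted p = 0.0311 from edgeR), Hspe1 on chow (0.39 against 0.69, 0.0371) and Lonp1 in BAT (0.85 against 0.94, 0.0127). These fits had fewer mice, with 5 KI and 5 WT on HFD, 3 and 5 on chow, and 6 and 4 in BAT.

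**Figure D1:**
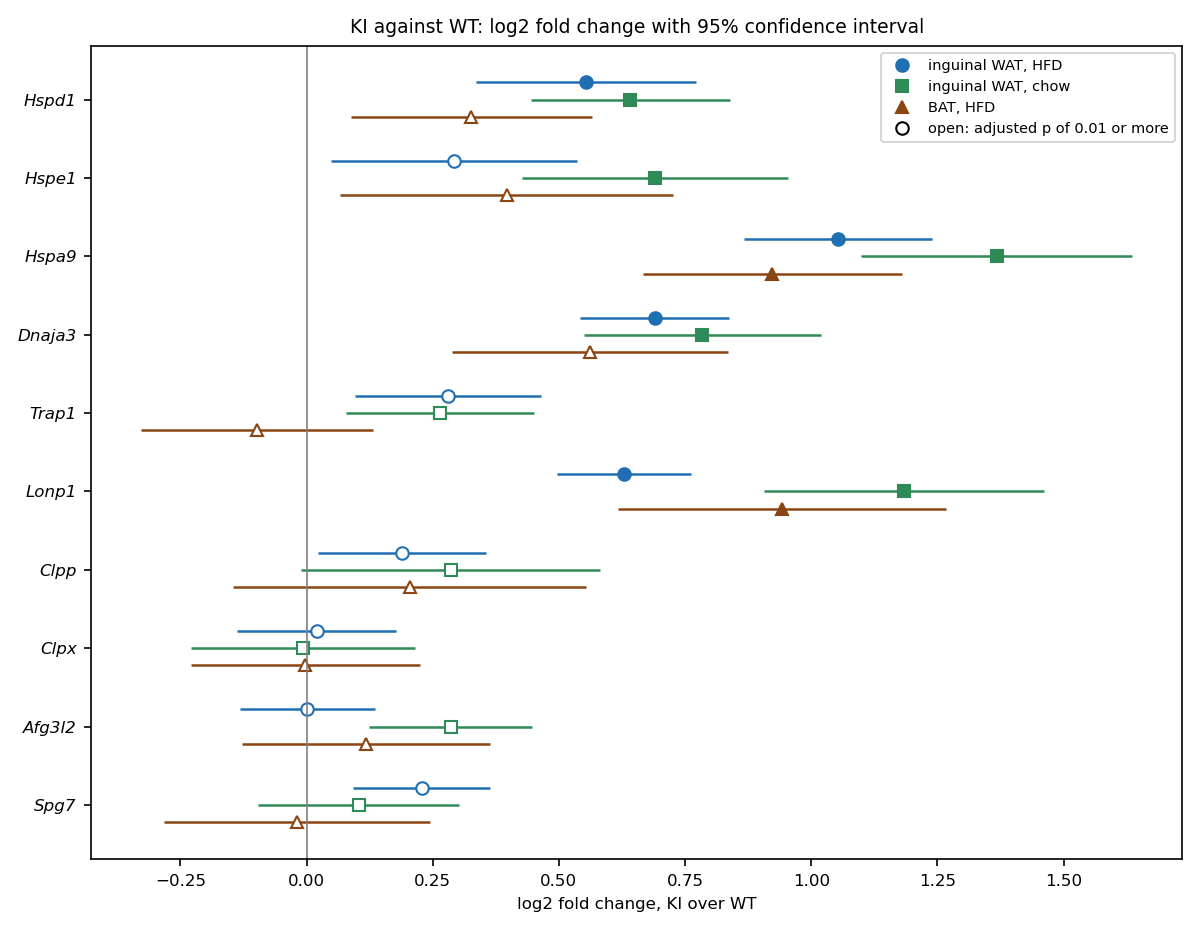
Log2 fold change of KI over WT (horizontal axis) for each of the 10 genes, as points with 95% confidence intervals, in inguinal WAT on HFD (circles), inguinal WAT on chow (squares) and BAT on HFD (triangles). Filled points have an adjusted p below 0.01. The points of Hspa9, Dnaja3 and Lonp1 lie furthest to the right, and those of Clpx lie close to 0.

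For Hspa9, Dnaja3 and Lonp1 the KI and WT mice did not overlap in any of the 3 comparisons, all KI mice being higher. On chow this was so for Hspd1, Hspe1 and Afg3l2 as well. Over all genes tested the share with every KI mouse above every WT mouse was 2.09% on HFD, 2.75% on chow and 2.64% in BAT.

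**Figure D2:**
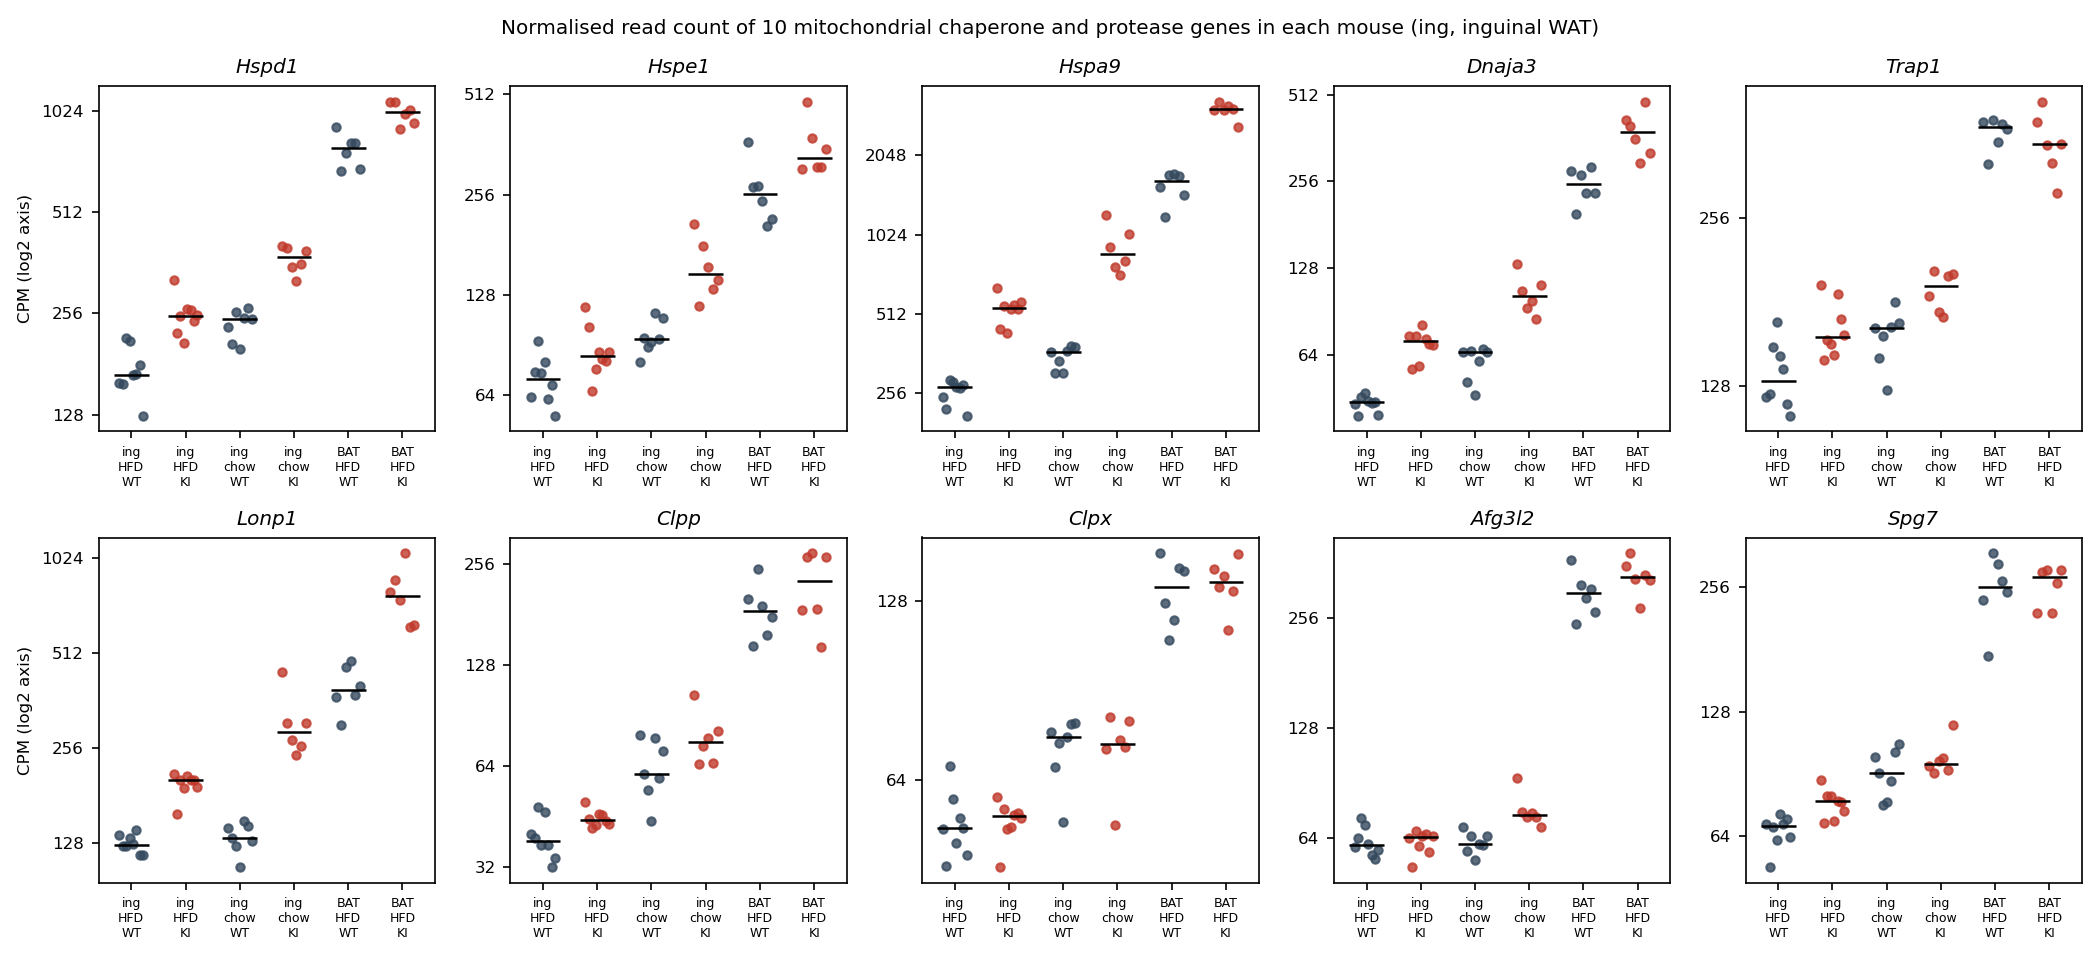
CPM on a log2 axis for each gene and mouse, in the order inguinal WAT on HFD, inguinal WAT on chow and BAT on HFD, with WT in dark blue and KI in red. Each point is 1 mouse, placed by its number within the group, and the black lines are medians. Hspa9, Dnaja3 and Lonp1 show no overlap of KI with WT in any of the 3 pairs of groups, and all 10 genes sit highest in BAT.

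Hspa9, the matrix Hsp70 also called mortalin, had the largest log2 fold change of the 10 genes in both inguinal comparisons. In inguinal WAT on HFD its lowest, median and highest values were 211, 269.6 and 286 CPM in WT mice and 433, 542 and 643 CPM in KI mice. On chow they were 305, 368 and 386 CPM in WT mice and 719, 866 and 1218 CPM in KI mice. In BAT they were 1191, 1632 and 1739 CPM in WT mice and 2631, 3059 and 3275 CPM in KI mice. The KI mice were thus above the WT mice without overlap in all 3. The lowest KI mouse on HFD also exceeded the highest WT mouse on chow, although diet and sequencing set cannot be told apart there. The log2 fold changes were 1.05 (standard error 0.088, adjusted p = 1.39e-07) on HFD, 1.37 (0.13, 1.99e-05) on chow and 0.92 (0.12, 0.000364) in BAT.

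Dnaja3 encodes the J-protein that hands unfolded proteins to Hspa9. In inguinal WAT on HFD it ranged from 39.3 through a median of 43.8 to 47.2 CPM in WT mice and from 57.2 through 71.2 to 80.9 CPM in KI mice. On chow the values were 46.4, 65.2 and 67.0 CPM in WT mice and 85.1, 103 and 132 CPM in KI mice. The groups did not overlap, and the log2 fold changes were 0.69 (standard error 0.071, adjusted p = 1.39e-06) and 0.78 (0.11, 0.000619). In BAT the values were 198, 252 and 288 CPM in WT mice and 296, 379 and 485 CPM in KI mice, again without overlap. There the log2 fold change was 0.56 (95% confidence interval 0.29 to 0.83) with an adjusted p of 0.0164, short of the threshold, while DESeq2 called it (adjusted p = 0.000819), as did edgeR without a filter on low counts (0.00972). The deposited Dnaja3 model shares bases with Vasn on the same strand and with Coro7 on the opposite strand, and the strand setting of the counting is not given in the sources used here, so its counts are uncertain to that extent.

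Hspd1 encodes Hsp60, the chaperonin that folds imported proteins in a closed chamber. In inguinal WAT on HFD it was at 127, 168 and 216 CPM (lowest, median, highest) in WT mice and at 209, 252 and 322 CPM in KI mice, and 7 of 8 KI mice exceeded every WT mouse. On chow it was at 200.1, 247 and 266 CPM in WT mice and at 319, 376 and 407 CPM in KI mice, without overlap. The log2 fold changes were 0.55 (standard error 0.10, adjusted p = 0.000844) on HFD and 0.64 (0.093, 0.000742) on chow. Without the mice high in muscle or lymphocyte markers, the HFD value was 0.52 (adjusted p = 0.0311 from edgeR). With mouse number as a block, and so without WT mouse 7, the chow value was 0.66 (adjusted p = 0.0159 from edgeR). Neither of these passed. In BAT, 5 of 6 KI mice (902 to 1091 CPM) lay above every WT mouse (681 to 919 CPM), and the log2 fold change was 0.33 (95% confidence interval 0.087 to 0.56, adjusted p = 0.0880), which did not pass. A processed pseudogene with similar sequence, Hspd1-ps4, had up to 390 counts in a mouse, so some reads may have been divided between them.

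Hspe1 encodes Hsp10, the lid of that chamber. On chow it was at 80.4, 94.3 and 113 CPM in WT mice and at 118, 148 and 209.7 CPM in KI mice, without overlap, and it rose by 0.69 on the log2 scale (standard error 0.12, adjusted p = 0.00332). That value fell to 0.39 when the mice high in muscle or lymphocyte markers were left out. That fit kept 3 KI and 5 WT mice. KI mice 1, 3 and 4, left out there, had the highest Hspe1 of the KI mice (209.7, 179 and 155 CPM). With mouse number as a block, and so without WT mouse 7, the log2 fold change was 0.71 (adjusted p = 0.0403 from edgeR), which did not pass. On HFD the groups overlapped (55.7, 71.8 and 93.0 CPM in WT mice, 65.8, 84.2 and 118 CPM in KI mice), with a log2 fold change of 0.29 (95% confidence interval 0.048 to 0.54, adjusted p = 0.0840). In BAT they overlapped as well (206, 257 and 368 CPM in WT mice, 306, 331 and 486 CPM in KI mice), with 0.40 (0.067 to 0.73, adjusted p = 0.129). Neither value passed, and neither interval included 0.

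Trap1, the Hsp90 of the matrix, was not called in any of the 3 comparisons. In inguinal WAT it was at 113 to 167 CPM in WT mice and 142 to 194 CPM in KI mice on HFD, and at 126 to 181 and 170.2 to 206 CPM on chow. The log2 fold changes there were 0.28 (95% confidence interval 0.096 to 0.46, adjusted p = 0.0290) and 0.26 (0.079 to 0.45, adjusted p = 0.0732). In BAT (319.8 to 383 CPM in WT mice, 284 to 413 CPM in KI mice) it was -0.098 (-0.33 to 0.13, adjusted p = 0.617). Its sign in BAT was thus opposite to that in inguinal WAT, and the test of the difference between tissues on HFD did not pass (log2 difference -0.34, standard error 0.13, adjusted p = 0.117).

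Lonp1 encodes the Lon protease, which degrades oxidised and misfolded matrix proteins, and was the protease that rose in all 3 comparisons. In inguinal WAT on HFD it was at 117, 126 and 141 CPM in WT mice and at 159, 203 and 212 CPM in KI mice. On chow the WT mice were at 108, 133 and 151 CPM and the KI mice at 243, 289 and 445 CPM. In BAT they were at 303, 389.7 and 483 CPM in WT mice and at 618, 772 and 1057 CPM in KI mice. No WT mouse reached the lowest KI mouse in any of the 3. The log2 fold changes were 0.63 (standard error 0.063, adjusted p = 1.11e-06) on HFD, 1.18 (0.13, 0.000101) on chow and 0.94 (0.15, 0.00181) in BAT. Without the mice high in muscle or lymphocyte markers, the value in BAT was 0.85 (adjusted p = 0.0127 from edgeR), which did not pass.

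Clpp and Clpx encode the other matrix protease, a peptidase chamber and the unfoldase that feeds it. Neither was called in any comparison. Clpp was at 32.1 to 48.4 CPM in WT mice and 41.9 to 50.0 CPM in KI mice on HFD, at 43.8 to 79.1 and 64.9 to 104 CPM on chow, and at 146 to 247 and 144 to 275 CPM in BAT. Its log2 fold changes were 0.19 (95% confidence interval 0.023 to 0.36), 0.29 (-0.012 to 0.58) and 0.20 (-0.15 to 0.55). Clpx was at 45.8 to 67.5 CPM in WT mice and 45.6 to 59.8 CPM in KI mice on HFD, at 54.4 to 79.6 and 53.7 to 81.8 CPM on chow, and at 110.2 to 154 and 114 to 153 CPM in BAT. Its log2 fold changes were 0.020 (-0.14 to 0.18), -0.0066 (-0.23 to 0.21) and -0.0024 (-0.23 to 0.22), so that changes beyond 0.23 on the log2 scale in either direction lay outside all 3 intervals. The sign in BAT turned with the scaling, that on chow in one fit of all 6 groups, and that on HFD when single mice were left out, so none of the 3 is read as a direction.

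Afg3l2 and Spg7 (paraplegin) encode subunits of the m-AAA protease of the inner membrane, and neither was called. Afg3l2 on chow came nearest by overlap, with 55.7, 61.7 and 68.4 CPM in WT mice and 68.6, 73.9 and 93.3 CPM in KI mice, the highest WT mouse lying just under the lowest KI mouse. Its log2 fold change was 0.29 (95% confidence interval 0.12 to 0.45, adjusted p = 0.0309), and DESeq2 called it (adjusted p = 0.00540). On HFD (55.9 to 72.3 CPM in WT mice, 53.2 to 66.9 CPM in KI mice) it was 0.0017 (-0.13 to 0.14), a value whose sign turned with the scaling, and in BAT (246 to 368 and 272 to 384 CPM) it was 0.12 (-0.13 to 0.36). Spg7 was at 53.9, 67.9 and 72.4 CPM in WT mice and at 68.7, 77.8 and 87.3 CPM in KI mice on HFD, where 6 of 8 KI mice exceeded every WT mouse. The log2 fold change was 0.23 (0.092 to 0.36, adjusted p = 0.0168), and DESeq2 called it (adjusted p = 0.00803). On chow (76.3 to 107 and 90.8 to 119 CPM) and in BAT (174 to 309.6 and 221 to 282 CPM) it was 0.10 (-0.096 to 0.30) and -0.019 (-0.28 to 0.24).

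The 10 genes as a list had a median log2 fold change of 0.29 on HFD, 0.46 on chow and 0.27 in BAT, against 0.0055, -0.0085 and -0.013 over all genes tested. Nuclear genes of the respiratory chain and matrix (17 genes) had medians of 0.31, 0.43 and 0.12, and 9, 2 and 0 of them were called higher (DESeq2 called 9, 10 and 0). In BAT 4 of these 17 had an unadjusted p below 0.05, as had 3242 of all 13267 genes tested there in either direction. Over all genes tested the count was 5426 of 16471 on HFD and 3560 of 14629 on chow. The counts of list genes at an unadjusted p below 0.05 given from here on have these counts as their background. The mitochondrially encoded mRNAs went the other way from the nuclear genes. On HFD all 13 were called lower in KI mice, with summed levels of 16162 to 26167 CPM in KI and 42020 to 128284 CPM in WT mice. On chow 0 of 12 tested were called (6 lower at an unadjusted p below 0.05, 3 called by DESeq2), and in BAT 2 of 13 (5 by DESeq2). The sums on chow were 13508 to 35409 CPM in KI and 18862 to 42294 CPM in WT mice, with medians of 15005 and 28380 CPM. The highest KI sum on chow was that of mouse 4, the library highest in muscle markers, and the next was 15632 CPM. The part of that library in the calls was not tested. In BAT the sums were 94138 to 136260 CPM in KI and 135001 to 218745 CPM in WT mice. With mitochondrially encoded genes left out of the fits, the same numbers of members were called, 4, 5 and 2.

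Markers of other cell types differed between the genotypes as well. In inguinal WAT the 6 brown adipocyte markers summed to 78.4 CPM or more in KI and to 18.2 to 62.6 CPM in WT mice on chow, and to 20.1 to 46.0 and 11.3 to 22.7 CPM on HFD. Of these markers Cidea, a lipid droplet protein, was at 64.0 to 464 CPM in KI and 5.58 to 46.7 CPM in WT mice on chow, and at 10.7 to 36.8 and 3.11 to 10.4 CPM on HFD. Ucp1 had 9 counts or fewer in every mouse on chow and was at 0 in some. Not all of the 6 markers were higher in KI mice. On chow Ppargc1a was at 1.29 to 4.81 CPM in KI and 1.90 to 7.56 CPM in WT mice. On HFD Elovl3 was at 0.038 to 0.27 and 0.23 to 1.72 CPM, and Dio2 at 0 to 0.13 and 0.11 to 0.61 CPM. Only 3 of the markers were tested on each diet. Of these, 2 on chow and 3 on HFD had positive log2 fold changes, and 1 was called higher on each. The macrophage markers had a negative log2 fold change in 6 of 6 genes in each comparison, with 0 called by edgeR or DESeq2 and 1 in all, on chow, at an unadjusted p below 0.05. Their sums overlapped (407 to 1268 CPM in KI and 581 to 950 CPM in WT mice on HFD, 377 to 928 and 514 to 1871 CPM on chow, 144 to 254 and 152 to 446 CPM in BAT). The fibroblast markers were lower in median, with 1 of 6 called lower on HFD, 0 on chow and 1 in BAT. At an unadjusted p below 0.05, 3 were lower on HFD, 2 on chow and 5 in BAT, and DESeq2 called 1, 1 and 3. The endothelial markers had negative log2 fold changes in 5, 6 and 5 of 6 genes, with 0 called by edgeR, 3, 3 and 2 lower at an unadjusted p below 0.05, and 0, 0 and 1 called by DESeq2. Of the 6 adipocyte markers, 2 were called higher and 1 lower on HFD. On chow and in BAT edgeR called 0 of them, with 1 higher and 1 lower on chow and 2 lower in BAT at an unadjusted p below 0.05, and DESeq2 called 1 and 2 lower. The part of these differences in the levels of the chaperones and proteases was not tested.

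Other genes of mitochondrial protein quality control were counted on lists set by function. Among 10 further chaperones and co-chaperones, Clpb, a disaggregase of the intermembrane space, was called higher in inguinal WAT on HFD (log2 fold change 0.65, standard error 0.092, adjusted p = 4.81e-05) and on chow (0.69, 0.13, 0.00424), and Dnajc19, a co-chaperone of the import motor, was called lower on HFD (-0.45, 0.078, 0.000371). On chow 10 of the 10 were higher at an unadjusted p below 0.05, and DESeq2 called 4. In BAT 0 of these 10 were called by edgeR, with 4 higher at an unadjusted p below 0.05 and 1 called by DESeq2. Clpb was at 37.5, 44.3 and 55.0 CPM in WT mice and 52.6, 71.1 and 82.9 CPM in KI mice on HFD, a small overlap.

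Among 14 further proteases and peptidases, Immp2l, a subunit of the inner membrane peptidase, was called higher on HFD (0.86, standard error 0.11, adjusted p = 2.20e-05) and on chow (1.27, 0.17, 0.000340). Mipep, which trims imported precursors, was called higher on HFD (0.28) and Xpnpep3, an aminopeptidase, lower (-0.34). On chow 7 of the 14 were higher at an unadjusted p below 0.05, and DESeq2 called 5. In BAT 0 were called by edgeR or DESeq2, with 3 higher and 1 lower at an unadjusted p below 0.05. The inner membrane proteases Yme1l1 (-0.11, 95% confidence interval -0.27 to 0.062, on HFD) and Oma1 (-0.053, -0.22 to 0.11) were among those that did not pass. Of 6 prohibitins and partners of the membrane proteases, Chchd10, a small protein of the intermembrane space, was called higher in all 3 comparisons (2.61, 4.77 and 1.01, its model overlapping Gm867 on the opposite strand), and Stoml2, a scaffold of the inner membrane, on HFD (0.25).

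Of 6 transcription factors linked to mitochondrial stress, 5 were called higher on HFD, 2 on chow and 2 in BAT (DESeq2 called 5, 4 and 4). Atf5 was at 82.6, 115.3 and 207 CPM in WT mice and 420.1, 741 and 917 CPM in KI mice on HFD, with a log2 fold change of 2.55, and it rose by 2.08 on chow and 1.93 in BAT. Ddit3 (Chop) rose by 1.37, 1.22 and 2.15, and Atf4 by 1.06 on HFD. The Atf5 values of KI and WT mice did not overlap in any of the 3 comparisons. They were 679 to 1411 CPM in KI and 138 to 280 CPM in WT mice on chow, and 831 to 1524 and 188 to 433 CPM in BAT. The Atf4 values overlapped on chow (174 to 336 CPM in KI, 154 to 191 CPM in WT mice) and in BAT (277 to 519 and 229 to 318 CPM).

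Chaperones of other compartments were measured beside them. Of 23 cytosolic heat shock chaperones, 2 were called higher on HFD (Cct4, log2 fold change 0.42, and Hspb1, 0.33) and 0 on chow and in BAT. At an unadjusted p below 0.05, 9 were higher on chow and 4 in BAT, and DESeq2 called 7 on chow and 0 in BAT. Over all genes tested, 3560 of 14629 on chow and 3242 of 13267 in BAT had such a p, in either direction. The medians of this list were 0.13, 0.13 and 0.087. Of 15 chaperones of the endoplasmic reticulum, 1 was called on HFD (Pdia4, 0.38) and 0 on chow and in BAT, with medians of 0.074, 0.0044 and -0.036. Of these, 1 was higher and 2 lower on chow at an unadjusted p below 0.05, with 1 called by DESeq2, and 1 was lower in BAT, with 0 called.

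Whether the KI effect depended on diet or tissue was tested as an interaction. None of the 10 genes was called by edgeR for a difference of the KI effect between HFD and chow, where 0.632% of all genes tested were called. At an unadjusted p below 0.05 there were 3 members, and 2927 of all 17400 genes tested. DESeq2 called 1 member. Lonp1 came nearest, with a KI effect smaller on HFD by a log2 difference of -0.54 (standard error 0.14, 95% confidence interval -0.83 to -0.25, adjusted p = 0.0300), and DESeq2 called it (adjusted p = 0.00345). The differences for Hspe1 (-0.39, -0.75 to -0.034), Hspa9 (-0.30, -0.62 to 0.012) and Afg3l2 (-0.27, -0.48 to -0.064) did not pass, and those of the other 6 genes were between -0.084 and 0.14. Between BAT and inguinal WAT on HFD none was called either (2.82% of all genes tested, 0 members by DESeq2). At an unadjusted p below 0.05 there were 2 members, and 3794 of all 17214 genes tested, for this difference between tissues. There Lonp1 differed by 0.34 (0.039 to 0.65, adjusted p = 0.167), the KI effect being larger in BAT. A count of 0 does not show that the KI effects were equal: on simulated data the interaction tests recovered fewer changes than the comparisons of KI with WT.

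The levels were then compared between tissues and diets. BAT was higher than inguinal WAT on HFD for all 10 in both genotypes, where 26.9% of all genes tested were called higher in WT and 28.4% in KI mice. The log2 fold changes ran from 1.08 for Trap1 in KI mice to 2.60 for Hspa9 in WT mice, while the median over all genes tested was -0.086 in WT and -0.12 in KI mice. In WT mice the genes nearest the top were Hspa9, Dnaja3 (2.52), Afg3l2 (2.25) and Clpp (2.24), and those nearest the bottom Clpx (1.30) and Trap1 (1.43). Afg3l2, which did not pass for genotype, had a tissue difference near the top of the list.

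Inguinal WAT on HFD was lower than on chow for 7 of the 10 genes in WT mice (15.2% of all genes tested were called lower) and for 9 of 10 in KI mice (15.4%). In WT mice Clpp was lowest on HFD relative to chow (-0.68, standard error 0.11, adjusted p = 1.33e-05), and Lonp1 (-0.060, 95% confidence interval -0.26 to 0.14), Afg3l2 (0.012, -0.13 to 0.15) and Trap1 (-0.22, -0.40 to -0.032, adjusted p = 0.0558) did not pass. In KI mice Hspe1 (-0.81), Clpp (-0.77), Hspa9 (-0.74) and Lonp1 (-0.60) were lower on HFD, and Trap1 (-0.19, -0.38 to 0.0050) did not pass. The tissues and diets come from separate tables, so that tissue or diet and sequencing set cannot be told apart. The comparisons above also share mice with those between the genotypes.

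**Figure D3:**
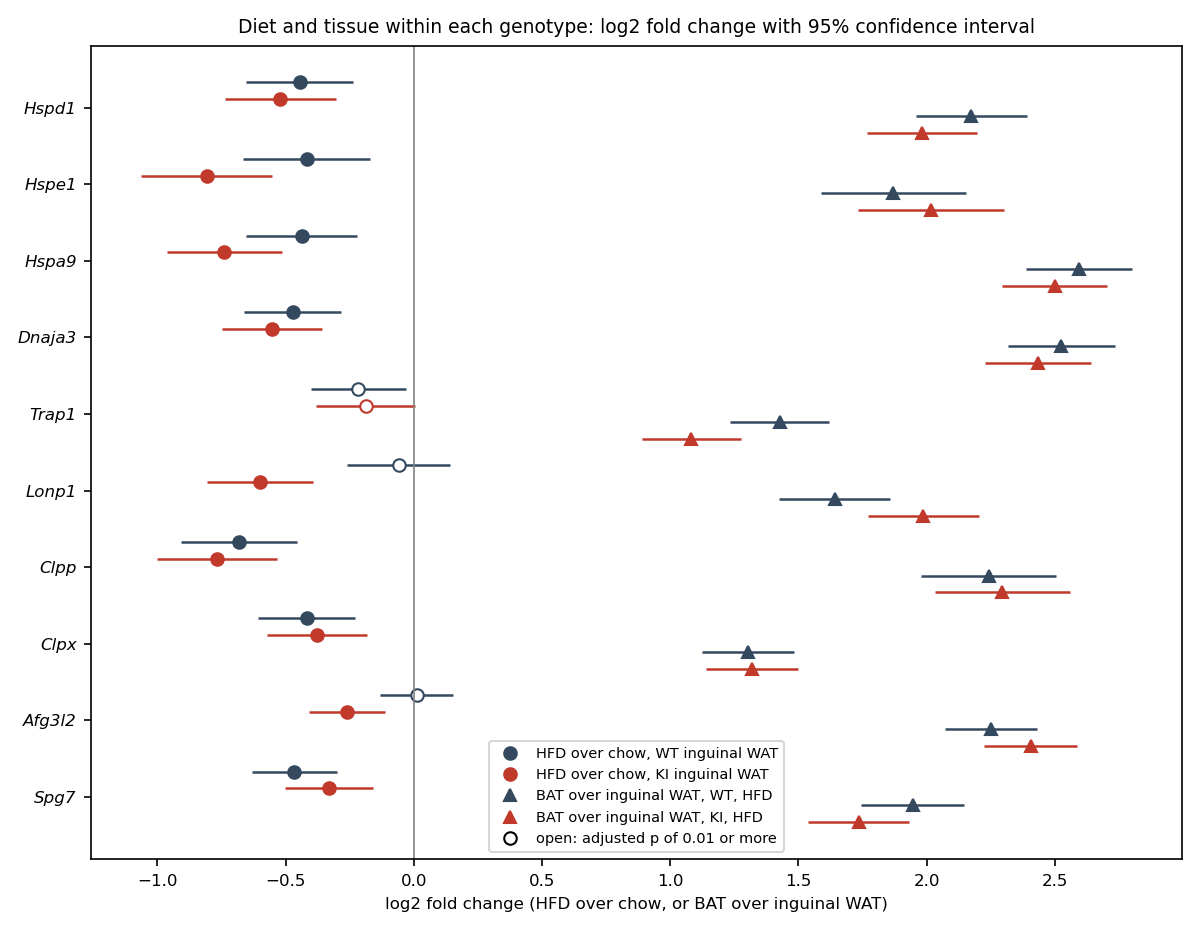
Log2 fold changes with 95% confidence intervals for HFD over chow in inguinal WAT (circles) and for BAT over inguinal WAT on HFD (triangles), in WT (dark blue) and KI mice (red), for each of the 10 genes. Open points have an adjusted p of 0.01 or more. All triangles lie above 1, and the circles of Lonp1 lie at -0.060 in WT and -0.60 in KI mice.

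Ordered by median CPM over the 6 groups, the members differed in where KI mice on HFD stood. For Hspa9, Dnaja3, Lonp1, Hspd1 and Afg3l2 the order from low to high was WT on HFD, WT on chow, KI on HFD, KI on chow, WT BAT and KI BAT. KI mice on HFD were thus above WT mice on chow in median for these genes, without overlap of mice for Hspa9 and Lonp1 and with overlap for Hspd1, Dnaja3 and Afg3l2. For Hspe1, Trap1, Clpp and Spg7 the order was WT on HFD, KI on HFD, WT on chow and KI on chow, with overlapping neighbours except for WT and KI on chow in Hspe1. For Clpx the inguinal groups of one diet overlapped throughout. The mice of the lower BAT group lay above those of the highest inguinal group, without overlap, except in Hspe1, Hspa9 and Lonp1, where KI mice on chow reached into the range of WT BAT.

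To compare levels between genes, counts were divided by the gene lengths of the files and scaled to one total per mouse (TPM). Within inguinal WAT of WT mice on HFD the TPM were 156 ± 33 for Hspd1, 143 ± 27 for Hspa9, 124 ± 20 for Trap1 and 115 ± 19 for Hspe1 (SD, n = 8), and the mice of each neighbouring pair overlapped. Clpp (75.8 ± 7.5) and Lonp1 (69.5 ± 11) followed and overlapped, then Clpx (36.7 ± 6.2), Spg7 (34.7 ± 6.0) and Dnaja3 (26.4 ± 4.1), and Afg3l2 (15.0 ± 1.8) was lowest, without overlap with Dnaja3. In KI mice of this group Hspa9 (408 ± 50) stood above Hspd1 (316 ± 38) in 8 of 8 mice, whereas in WT mice Hspd1 stood above Hspa9 in 7 of 8. Lonp1 (149 ± 15) stood above Clpp (121 ± 5.5) in 7 of 8 KI mice, and Clpp above Lonp1 in 6 of 8 WT mice. In BAT of WT mice the order was Hspa9 (399 ± 51), Hspd1 (327 ± 32) and Hspe1 (196 ± 35, n = 6). Afg3l2 had the lowest TPM of the 10 in all 6 groups, and its model is the longest of them at 9874 bases. TPM are used only for order within a group, since the large change of the mitochondrially encoded mRNAs shifts TPM of all other genes.

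Partner genes of one machine were compared as ratios within a mouse, which do not depend on scaling between libraries. The ratio of Hspd1 to Hspe1 per length was 1.63 in KI and 1.35 in WT mice of inguinal WAT on HFD (geometric means, difference of log2 ratios 0.27, exact 2-sided permutation p = 0.0166, adjusted p = 0.0993 over 9 tests). The ratio of Afg3l2 to Spg7 was 0.371 in KI and 0.434 in WT mice there (difference -0.23, exact p = 0.0221, adjusted p = 0.0993). On chow and in BAT the lowest exact p of these 2 ratios was 0.172. The ratio of Clpp to Clpx was higher in KI mice by 0.17, 0.30 and 0.18 on the log2 scale in the 3 comparisons (exact adjusted p = 0.161, 0.161 and 0.534). None of the 9 differences passed an adjusted p of 0.05. Over 16 tests that each left out 1 mouse, the Hspd1 to Hspe1 difference on HFD ran from 0.22 to 0.34 (exact permutation test, adjusted p = 0.0154 to 0.178). The lowest p came without KI mouse 2, where the difference was 0.34 and passed.

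Co-variation of the 10 genes between mice of the same group was then described. With each gene centred on its group mean in log2 CPM, Pearson's r was positive for all 45 pairs of members over the 41 mice, from 0.025 (Hspe1 with Clpx) to 0.77 (Hspd1 with Hspa9), with a median of 0.40. Within single tables, 43 of 45 pairs were positive in the HFD table, 43 in the chow table and 36 in the BAT table. The values ran from -0.13 to 0.89, from -0.27 to 0.88 and from -0.58 (Lonp1 with Clpx) to 0.76. The share of positive pairs among other genes was not counted. The closest pairs after Hspd1 and Hspa9 were Hspa9 with Dnaja3 (0.72), Hspa9 with Lonp1 (0.71) and Dnaja3 with Afg3l2 (0.69). Hspd1 and Hspe1, the head-to-head pair, reached 0.40. These correlations are descriptions without a test, over libraries that share depth, scaling and cell makeup.

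**Figure D4:**
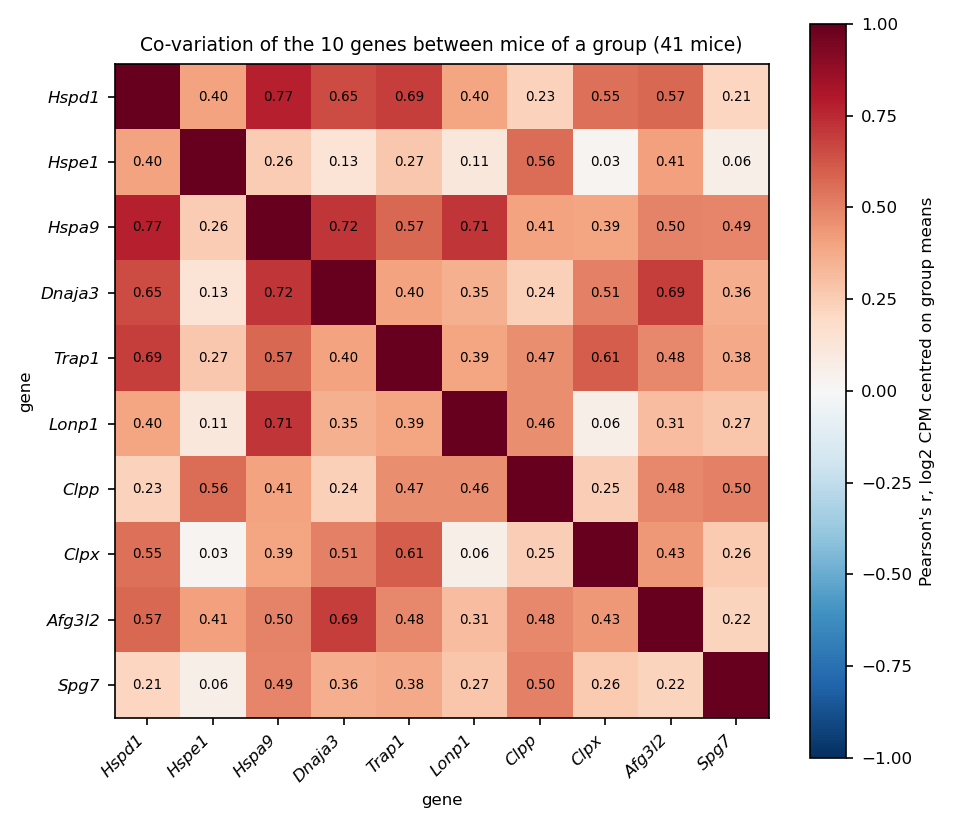
Pearson's r between each pair of the 10 genes over 41 mice, with log2 CPM centred on group means. Red is positive and blue negative on a scale from -1 to 1. All 45 pairs are positive, and the highest is Hspd1 with Hspa9 at 0.77.

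Of 10261 genes with a mean log2 CPM of at least 3, the 2 most like each member on this measure were as follows. Hspa9 lay closest to Gars, the glycyl-tRNA synthetase (r = 0.80), and to Eif3c, a translation initiation factor (0.78). Lonp1 lay closest to Hspa9 (0.71) and Trf, transferrin (0.71), and Dnaja3 to Vcp, an AAA ATPase of cytosolic protein quality control (0.82), and Cs, citrate synthase (0.81).

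Clpp, by contrast, lay closest to Mrps15, a mitochondrial ribosomal protein (0.92), and Ndufv3, a subunit of complex I (0.91), the highest values of any member. Hspd1 was most like Mccc1, a carboxylase of leucine breakdown (0.79), and Hspa9 (0.77), and Trap1 most like Mccc1 (0.81) and Lonp2, the Lon protease of peroxisomes (0.80). Hspe1 was most like Psma4, a proteasome subunit (0.77), and Ndufb2, of complex I (0.76). Clpx was most like Adhfe1 (0.78) and Mettl7a1 (0.77), Afg3l2 most like Aifm1 (0.75) and Ndufaf1, an assembly factor of complex I (0.72), and Spg7 most like Gm5144 (0.79) and Timm17a, of the import machinery (0.75). Only Hspd1 and Lonp1 had another of the 10 genes, Hspa9 in both, among their 2 nearest.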

How the data were processed

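The authors deposited raw counts per gene, made with featureCounts from reads trimmed by cutadapt and mapped by STAR (GRCm38, with SAMtools). Versions, annotation release and strand setting are not given in the sources used here. The 3 deposited tables hold 41 columns, 1 for each mouse and tissue, with 52853 genes after 1884 entries without values were left out and repeated symbols were merged. No column was left unused. The totals per mouse limit precision for low counts only, since every member had at least 581 counts in each mouse. KI and WT were compared with edgeR 4.0.16 in R 4.3.3 (TMM, filterByExpr, robust quasi-likelihood). Interactions were tested in one fit of 4 groups, and partner ratios with exact permutation tests. The methods were tested on simulated data for bias, false calls and interval coverage. A minimum share of changes recovered, first required as well, was dropped after the diet interaction fell short of it. Alternatives were DESeq2 1.42.0, RLE size factors, other filters and thresholds, mitochondrially encoded genes left out, one fit of 6 groups, a replicate block and each mouse left out; leaving out mice by marker sums was added after seeing the data. The sources used here do not say whether 1 mouse gave both tissues, which were taken as independent. The mice of a group are separate animals. The members, lists and tests were chosen with earlier results of these data known. The rule names all members, Mfn2, up to 3 called genes in each direction per list, and the 2 genes most like each member. Yme1l1, Oma1 and the summed markers were named beyond it after their values were seen.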

Additional observations from a re-analysis of the deposited data

Results flagged for a closer look

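Of 60 groups of member values, 6 held a mouse at one end far from the rest, where chance gives about 1 in 20 groups. In KI inguinal WAT on chow, Lonp1 was 445 CPM in mouse 1 (next 307), Afg3l2 was 93.3 CPM in mouse 1 (next 75.1), Spg7 was 119 CPM in mouse 6 (next 98.7), and Clpx was lowest in mouse 3 at 53.7 CPM (next 72.2). In KI inguinal WAT on HFD, Lonp1 was lowest in mouse 2 at 159 CPM (next 192). In KI BAT, Hspa9 was lowest in mouse 6 at 2631 CPM (next 3051). Mice 1 and 3 on chow and mouse 2 on HFD were also high in lymphocyte markers, and the part of this in these values was not tested.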

How the results depend on the processing

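Members called in the KI against WT comparisons (4 on HFD, 5 on chow, 2 in BAT) stayed called in every fit that left out 1 mouse, with 1460 to 2338, 288 to 497 and 134 to 313 genes called in all against 1886, 472 and 243. The lowest counts on chow and in BAT came without WT mouse 2 and without WT mouse 6. All genes called were 880, 125 and 59 at an adjusted p below 0.001, 3448, 1252 and 952 at one below 0.05, and 1242, 1088 and 834 in one fit of 6 groups. DESeq2 called 1121 on chow, 715 in BAT, 414 for the diet interaction and 844 for the tissue interaction, against 472, 243, 110 and 485 by edgeR, and 1 member (Lonp1) for the diet interaction. Without the mice high in muscle or lymphocyte markers, 1018 genes were called on HFD, and 1 member in BAT, as at an adjusted p below 0.001. The replicate block gave 127 genes and 3 members on chow, without Hspd1 (0.66, adjusted p = 0.0159 from edgeR) and Hspe1 (0.71, 0.0403), against 0.64 and 0.69 without the block. On chow the block fit used only the 6 mouse numbers found in both genotypes, so it also left out WT mouse 7. The sources used here do not say whether the numbers pair the mice. Correlations of the pairs exceeded 0.1 in 2 of 8, 2 of 6 and 3 of 6, and KI mice were most like their own number in 1, 0 and 3. These correlations cannot decide it, since paired mice need not be alike in expression. Signs turned only for values near 0. Clpx in BAT became 0.0055 (DESeq2), 0.0058 (RLE), 0.0014 (at least 10 counts), 0.0070 (no filter), 0.040 (one fit), 0.0030 (replicate block) and 0.058 (mice left out), and on chow 0.0019 (one fit), 0.017 (replicate block) and 0.053 (mice left out). Afg3l2 on HFD became -0.0024 (DESeq2), -0.0029 (RLE), -0.0048 (one fit) and -0.019 (mice left out), and its HFD against chow value in WT mice -0.0061 without mitochondrially encoded genes. Spg7 in BAT became 0.020 in one fit. Leaving out 1 mouse gave -0.020 to 0.028 for Afg3l2 on HFD, -0.012 to 0.066, -0.054 to 0.064 and -0.039 to 0.060 for Clpx on HFD, chow and in BAT, -0.10 to 0.057 for Spg7 in BAT, and -0.13 to 0.034 on chow and -0.14 to 0.0019 in BAT for the Hspd1 to Hspe1 ratio. On HFD that ratio ran from 0.22 to 0.34, with an adjusted exact p of 0.0154 to 0.178. The causes were not tested.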
